A study of Mus musculus with 2 samples.

Results

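Cpa3, Mcpt8, Cma1, Ms4a2 and Fcer1a are genes of mast cells and basophils, and they were followed through 5 sorted populations of mouse thymus cells. They are 5 of the 27998 genes counted, picked by name and matched to the gene symbols of the count matrix, where each has 1 entry. Their RNA was distributed in very different ways. Cpa3 RNA was found in 55.1% of the 7948 sorted cells, Mcpt8 RNA in 6.05%, Ms4a2 RNA in 33 cells, Cma1 RNA in 17 cells and Fcer1a RNA in 4 cells.

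Mast cells and basophils store proteases in granules and carry the high-affinity receptor for immunoglobulin E (IgE), whose crosslinking by antigen releases the granules. Cpa3 encodes mast cell carboxypeptidase A, Cma1 encodes a mast cell chymase and Mcpt8 encodes a granule protease used as a marker of mouse basophils, while Fcer1a encodes the IgE-binding alpha chain of the receptor and Ms4a2 its signal-amplifying beta chain. Cpa3 is also known from early blood and thymic progenitors, where it is transcribed outside the mast cell lineage.

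The cells came from the thymus of C57BL/6 mice with the genotype Bcl11byfp/yfp, in which both Bcl11b alleles carry a yellow fluorescent reporter; Bcl11b is a factor of T-lineage commitment. All 5 sorts were live (7AAD-), lineage-negative and Kit+, and the reporter allele is shared by all of them. The 4 gated sorts of early thymic progenitors (ETPs) were in addition CD25- and Bcl11b-, and were divided by the cytokine receptor Flt3, the lymphoid antigen Ly6d and HSA, the CD24 antigen. The sorts were Flt3+ Ly6d- HSA- (1412 cells), Flt3+ HSA+ (1182 cells), Flt3- Ly6d- HSA- (1205 cells) and Flt3- Ly6d+ (847 cells), and the control of 3302 cells was gated only as lineage-negative, live and Kit+, so it also holds more advanced cells. Each sort carried a hashtag antibody and all went into 1 droplet library, and age, sex and the number of mice are not stated in the labels used here. Mast cells are Kit+, and no antibody against an IgE receptor chain is named in the gates.

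Summed counts ran from 10616041 to 57199129 unique molecular identifiers (UMIs, each a captured RNA molecule) per sort, and median UMIs per cell from 9860 in Flt3- Ly6d- HSA- cells to 21152 in Flt3+ HSA+ cells. Levels are given as UMIs per 1000000 of the sort (CPM) and shares as cells with at least 1 UMI, with 95% intervals (Poisson for CPM, exact Clopper-Pearson for shares, binomial split for ratios) that cover counting error only. Every population was sorted 1 time, so differences have no repeat to be tested against, and cells of a sort are not replicates. Counts come from the 3′ ends of transcripts, and levels are compared between sorts, not between genes. For comparisons that depend on depth each cell was also thinned to 3000 UMIs. The 8293 barcodes of the library were all distinct. A granulocyte class was kept apart, cells with at least 7 of 14 granulocyte and monocyte markers such as Mpo and Elane: it held 4.82%, 2.28%, 8.05%, 0% and 1.27% of the cells of the sorts in the order above, the control last, and values for the 5 sorts follow this order throughout. The 14 markers summed to 489 CPM in the Flt3- Ly6d+ sort, 1115 CPM in the control and 3225 to 4526 CPM in the other 3.

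All 5 are protein-coding genes on the minus strand. In GENCODE M21 (GRCm38) Cpa3 (ENSMUSG00000001865) spans chr3:20215620-20242181, Ms4a2 (ENSMUSG00000024680) chr19:11615523-11623719 and Fcer1a (ENSMUSG00000005339) chr1:173221284-173227214. Cma1 (ENSMUSG00000022225) at chr14:55941451-55944675 and Mcpt8 (ENSMUSG00000022157) at chr14:56082166-56085273 lie on the same chromosome. The sequence just upstream of the genes is shown for Cpa3, Cma1, Ms4a2 and Fcer1a. The lines give the 100 bases before the RefSeq start of each gene (GRCm38.p6), 5′ to 3′ on the strand of the gene, and capitals mark the words AGATAA and TGATAA on either strand, the DNA words read by GATA factors. Gata2 is a GATA factor of mast cells and basophils.
Cpa3 (chr3:20242182-20242281, minus strand): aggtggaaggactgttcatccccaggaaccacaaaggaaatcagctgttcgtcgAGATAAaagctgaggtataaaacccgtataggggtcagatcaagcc
Cma1 (chr14:55944676-55944775, minus strand): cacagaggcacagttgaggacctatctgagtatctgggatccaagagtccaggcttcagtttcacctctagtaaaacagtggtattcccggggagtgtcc
Ms4a2 (chr19:11623720-11623819, minus strand): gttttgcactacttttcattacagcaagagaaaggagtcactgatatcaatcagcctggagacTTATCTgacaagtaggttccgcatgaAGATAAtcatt
Fcer1a (chr1:173227230-173227329, minus strand): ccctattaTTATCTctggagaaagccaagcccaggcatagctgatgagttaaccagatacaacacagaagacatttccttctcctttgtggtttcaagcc
Cpa3 held 1 such word, 46 bases before the start, Ms4a2 held 2, at 37 and 11 bases, Fcer1a held 1, at 92 bases, and Cma1 held none. Among 32851 RefSeq promoters 6.17% held at least 1 of these words in the same 100 bases. The window of Mcpt8 held none and is not printed, because part of it lies inside the longer GENCODE gene. The E-box word CANNTG, which reads the same on both strands, was present in the windows of Cpa3 and Cma1 (1 each) and Mcpt8 (2), and in 34.4% of all promoters. These are matches of letters and say nothing about binding.

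Cpa3 was low in both Flt3+ sorts, several times higher in both Flt3- sorts and highest in the control. The Flt3+ Ly6d- HSA- sort had 560 UMIs or 22.7 CPM (20.9 to 24.7), the Flt3+ HSA+ sort 878 UMIs or 34.3 CPM (32.0 to 36.6), the Flt3- Ly6d- HSA- sort 3670 UMIs or 262 CPM (253 to 270), the Flt3- Ly6d+ sort 2327 UMIs or 219 CPM (210 to 228), and the control 20465 UMIs or 358 CPM (353 to 363). Ranked by level, no neighbouring intervals overlapped. The share of cells with a Cpa3 UMI ran the same way except that the 2 Flt3- sorts changed places: 21.2% (19.1 to 23.5), 32.0% (29.3 to 34.7), 60.4% (57.6 to 63.2), 67.4% (64.1 to 70.6) and 72.7% (71.2 to 74.3). After thinning, the shares were 6.41%, 9.52%, 38.6%, 38.0% and 47.7%, and the intervals of the 2 Flt3- sorts then overlapped (35.8 to 41.5 and 34.7 to 41.4). The higher full-depth share of the Flt3- Ly6d+ cells came with a median depth of 11404 against 9860 UMIs.

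**Figure D1:**
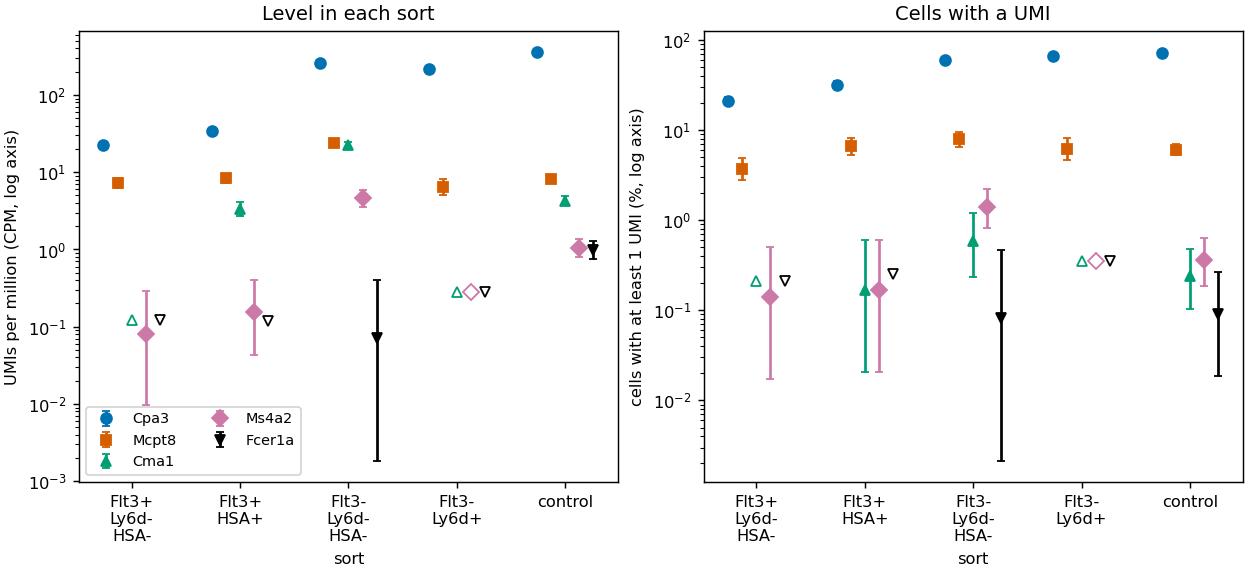
Level in UMIs per 1000000 (left) and share of cells with at least 1 UMI (right) of the 5 genes in the 5 sorts, both on log axes, with 95% counting intervals. Open symbols mark genes with 0 UMIs and are drawn at the limit of 3 counts. Cpa3 goes from 22.7 to 358 CPM, Mcpt8 stands out at 23.9 CPM in Flt3- Ly6d- HSA- cells, and Cma1, Ms4a2 and Fcer1a all have 0 UMIs in the Flt3- Ly6d+ sort.

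Most Cpa3 RNA lay in many cells with moderate counts. The median cell had 0, 0, 1, 1 and 3 Cpa3 UMIs in the 5 sorts, the 90th percentile was 1, 2, 7, 7 and 17 UMIs, and the highest cells had 13, 36, 60, 35 and 85. The 10 cells with most Cpa3 held 14.1%, 16.7%, 12.0%, 8.59% and 2.59% of its UMIs in the 5 sorts. Over all genes with at least 100 UMIs in a sort, the median of this share was 6.23%, 6.25%, 8.10%, 8.83% and 3.26%, so the share of Cpa3 was above the median in 3 sorts and below it in Flt3- Ly6d+ cells and the control.

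Cpa3 was nevertheless less evenly spread over cells than most genes. Had its UMIs fallen on cells in proportion to their depth, 31.5%, 50.2%, 89.0%, 89.1% and 97.0% of cells would have held at least 1, so the observed shares were 0.674, 0.637, 0.679, 0.757 and 0.750 of that. The median gene with at least 100 UMIs in a sort reached 0.983 to 0.988, and between 1.04% and 2.78% were less even than Cpa3. These genes were not matched to Cpa3 for level. In Flt3- Ly6d- HSA- cells 477 of 1205 cells had no Cpa3 UMI while 93 cells with at least 10 UMIs held 50.8% of them. In the Flt3- Ly6d+ sort 47 such cells held 28.1%. Cells with at least 10 Cpa3 UMIs numbered 2, 9, 93, 47 and 825 over the 5 sorts.

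**Figure D2:**
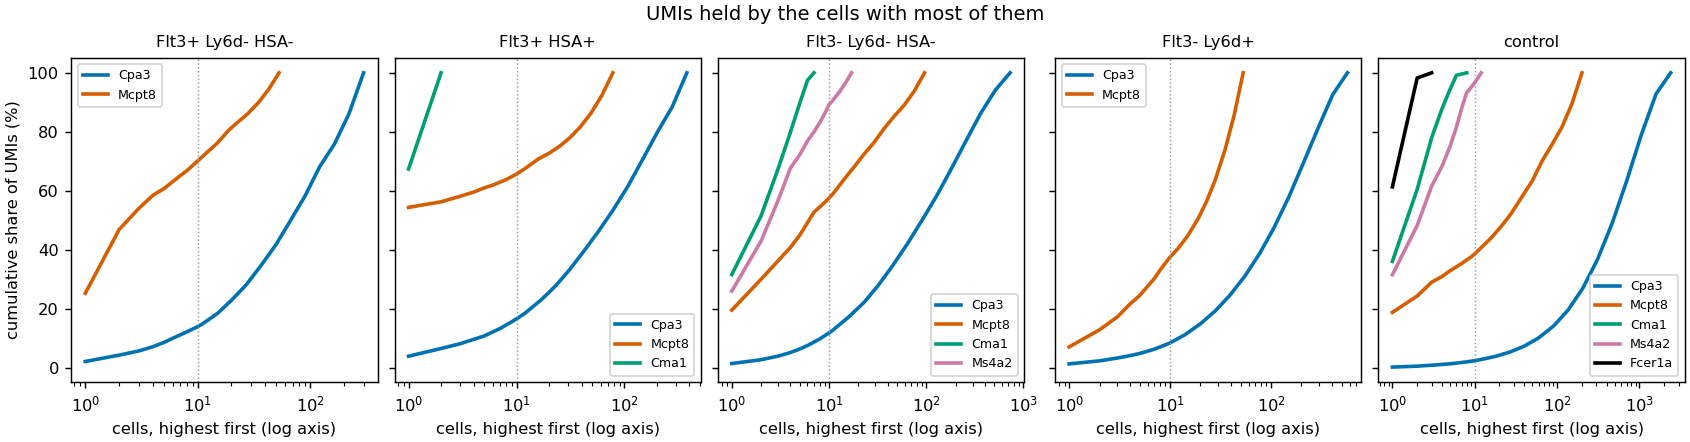
Cumulative share of UMIs (%) against the number of cells, ranked from the cell with most UMIs of the gene (log axis), in each sort, for genes with at least 20 UMIs there. The dotted line marks 10 cells: at that line Cpa3 stands between 2.59% and 16.7%, Mcpt8 between 37.7% and 70.2%, and Cma1, Ms4a2 and Fcer1a between 89.2% and 100%.

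Between sorts, Cpa3 was 11.5-fold (10.5 to 12.6) higher in Flt3- Ly6d- HSA- than in Flt3+ Ly6d- HSA- cells. The genes compared here reached 20 CPM in the higher sort and were detected in 5% or more of its cells, and of these 5691 genes none lay farther apart. The ratio was 11.3 without the granulocyte class, 10.8 without the cells that held 2 or more of the other 4 genes, and 11.8 without the 10 cells of each sort with most Cpa3. By a size rule that adds a ratio of at least 2, 0.703% of these genes were higher, and Cpa3 and Mcpt8, the members that met the level and share conditions, were both among them. The call of Mcpt8 rests on few cells: without the granulocyte class it had 8.71 CPM in 3.88% of Flt3- Ly6d- HSA- cells, and without the cells with 2 or more of the 4 genes 15.7 CPM, both short of the conditions. Cma1, Ms4a2 and Fcer1a had too few positive cells to enter the rule in any comparison.

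Cpa3 was 1.51-fold (1.35 to 1.68) higher in Flt3+ HSA+ than in Flt3+ Ly6d- HSA- cells, short of the ratio of 2 that 0.163% of genes passed upward. It was 6.40-fold (5.92 to 6.92) higher in Flt3- Ly6d+ than in Flt3+ HSA+ cells, where 8 of 5809 genes lay farther apart and 1.51% were higher by the size rule. Between the 2 Flt3- sorts it differed little, at 0.837 times (0.795 to 0.882) the level in Ly6d+ cells, while 0.581% of genes were lower by the rule. Mcpt8 was among these, a call that the levels of 8.71 and 15.7 CPM just given also end. In the control it stood 2.66-fold (2.59 to 2.73) above the mean of the 4 gated sorts, where 0.978% of genes were higher by the rule. These comparisons share sorts and are not independent of each other.

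The control allowed Cpa3 to be followed past the gates, by the RNA of Il2ra (the gene of CD25), Bcl11b and Cd3g, a subunit of the T-cell receptor complex. Its level was 132 CPM (127 to 138) in 1112 control cells with neither Il2ra nor Bcl11b, 292 CPM (282 to 301) in 766 cells with Il2ra but no Bcl11b, 575 CPM (564 to 587) in 835 cells with Bcl11b but no Cd3g, and 501 CPM (487 to 515) in 589 cells with both Bcl11b and Cd3g. The shares of cells with a UMI were 51.0%, 84.7%, 97.7% and 62.8%, and thinned they were 25.6%, 52.5%, 73.2% and 46.2%. Cpa3 RNA was thus near universal in cells with Bcl11b and no Cd3g, 437 of which had at least 10 UMIs. The classes rest on detected UMIs, so shallow cells fall more easily into the classes named by an absent gene. With the classes set on cells thinned to equal depth Cpa3 was at 210.1 CPM in 1651 cells, 420.5 CPM in 647, 639 CPM in 612 and 403 CPM in 340, in the same order of levels over the first 3 classes. The class with Bcl11b and Cd3g (384 to 423 CPM) then overlapped with the class with Il2ra and no Bcl11b (409 to 432 CPM), while in classes set at full depth it was higher.

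Among the control cells with Bcl11b, Cpa3 went with low Cd3g. The thinned share of cells with a Cpa3 UMI was 73.2% at 0 Cd3g UMIs, 77.4% at 1, 77.0% at 2 to 4, 59.7% at 5 to 9 and 26.7% (22.0 to 31.8) at 10 or more. In the last group of 336 cells, with a median of 8212 UMIs each, the median cell had 0 Cpa3 UMIs, yet 67 cells had at least 10. Their sum of 1464 UMIs gave 325 CPM (309 to 343). Cells with Bcl11b and Cd3g were meant as a reference lacking all 5 genes; for Cpa3 they do not serve as such, and no cell class here is known to lack it. Among the sorts, which shared 1 library, the lowest thinned share was 6.41% (5.18 to 7.82), in Flt3+ Ly6d- HSA- cells. Of the 68 granulocyte class cells among them 15 had a Cpa3 UMI at full depth (22.1%) and 2 after thinning (2.94%, 0.358 to 10.2). The thinned shares of the other 4 sorts ran from 9.52% to 47.7%, the lowest of them inside that last interval. Free RNA can weigh more in shallow cells. Median depth was 15478 UMIs in this sort and 36154 in its granulocyte class, against 9860 and 11404 in the Flt3- sorts. These shares therefore set no upper bound on free Cpa3 RNA in the other sorts.

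**Figure D3:**
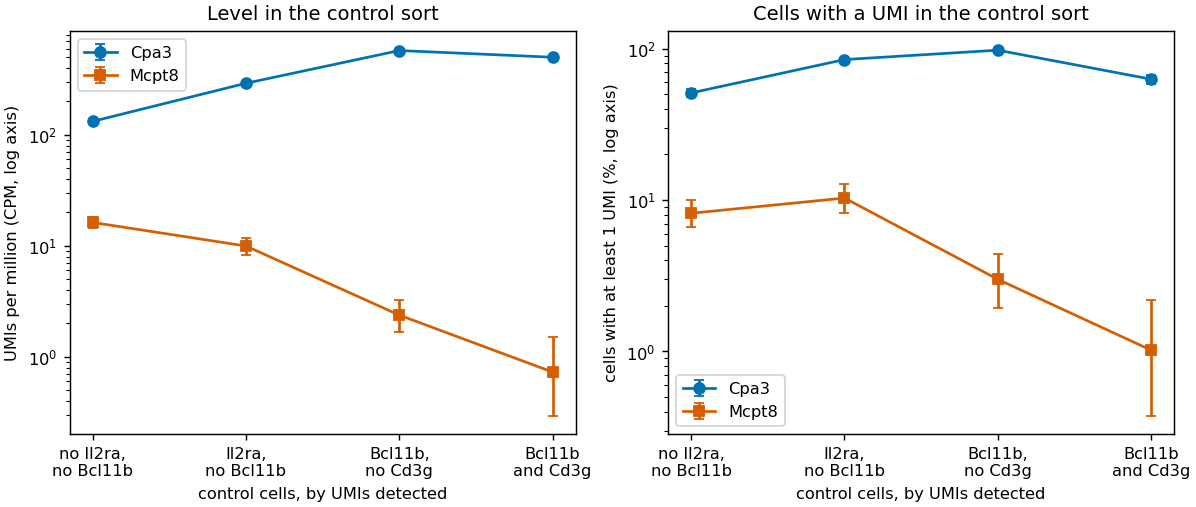
Level in UMIs per 1000000 (left) and share of cells with at least 1 UMI (right), on log axes, of Cpa3 and Mcpt8 in 4 classes of control cells set by detected Il2ra, Bcl11b and Cd3g UMIs, with 95% counting intervals. Cpa3 goes from 132 to 575 CPM over the first 3 classes while Mcpt8 goes from 16.2 to 2.37 CPM.

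Cpa3 was lower in mitotic than in other cells of 4 sorts. Mitotic cells here are cells with 5 or more UMIs, among 3000, from 21 genes of G2 and M phase. Cpa3 stood at 18.7 CPM (16.0 to 21.6) in mitotic cells against 25.3 CPM (22.8 to 27.9) in the other Flt3+ Ly6d- HSA- cells, and at 122 CPM (104 to 141) against 235 CPM (225 to 245) in Flt3- Ly6d+ cells. In Flt3- Ly6d- HSA- cells it stood at 325 CPM (296 to 356) in 69 mitotic cells against 253 CPM (244 to 262). Without the granulocyte class these were 275 CPM (240 to 314) and 249 CPM (239 to 259), whose intervals overlapped. For Mcpt8 the size of the difference depended on single cells. It had 11.6 CPM in mitotic against 3.14 CPM (2.13 to 4.45) in other Flt3+ HSA+ cells, but 4.21 CPM (3.26 to 5.36) without the cell of 116 UMIs, with overlapping intervals. In the control 10.8 CPM against 6.40 CPM (5.57 to 7.32) became 7.05 CPM (6.03 to 8.20) without the cell of 89 UMIs, whose intervals overlapped too. In Flt3- Ly6d- HSA- cells 83.8 CPM against 17.3 CPM (15.1 to 19.8) became 37.5 CPM (28.0 to 49.2) without the cell of 66 UMIs, and these intervals stayed apart. In Flt3+ Ly6d- HSA- cells the cell with most Mcpt8 UMIs was not mitotic, and without it the ratio of mitotic to other cells went from 1.97 to 4.54, but without the granulocyte class to 1.67 (0.777 to 3.56).

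The genes whose cell-to-cell pattern was most like that of Cpa3 were found from Pearson's r of log-scaled UMIs within each of the 4 gated sorts, averaged over the 4, for 8939 genes. All correlations were weak: the highest was 0.219, 72 genes exceeded 0.1, and cells of a sort share a library and differ in depth. The first 8 were Muc13, a cell surface mucin (0.219), Srgn, the granule proteoglycan serglycin (0.204), Cdk6, a cell cycle kinase (0.193), Scin, an actin-severing protein (0.187), Itga4, an integrin chain (0.183), Malat1, a nuclear RNA (0.177), Ikzf2, a zinc finger factor (0.172), and Tcf7, the gene of the T-lineage factor TCF-1 (0.169). Of the mast cell and basophil list Kit had a mean r of 0.114, Cd63, a granule membrane protein, 0.112 and Hdc, the histamine-forming enzyme, 0.0526.

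Across the 5 sorts, the genes with the most similar profile were Tcf7, Muc13, Hbb-bt, a globin gene, Aqp11, an aquaporin, and Scin. Tcf7 had 30.2, 42.8, 122, 211 and 215 CPM and differed from the centred log2 profile of Cpa3 by a root mean square of 0.59 over 5 sorts. Muc13 had 6.70, 8.16, 34.4, 32.1 and 32.5 CPM, with a difference of 0.61. Muc13, Tcf7 and Scin stood on both lists of likeness.

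Mcpt8, the basophil protease, was found at a few UMIs in 3.75% to 7.97% of cells in each sort and at high counts in 14 cells. The Flt3+ Ly6d- HSA- sort had 181 UMIs or 7.35 CPM (6.32 to 8.50), the Flt3+ HSA+ sort 213 UMIs or 8.31 CPM (7.23 to 9.51), the Flt3- Ly6d- HSA- sort 335 UMIs or 23.9 CPM (21.4 to 26.6), the Flt3- Ly6d+ sort 69 UMIs or 6.50 CPM (5.06 to 8.23), and the control 470 UMIs or 8.22 CPM (7.49 to 8.99). The Flt3- Ly6d- HSA- sort stood above the others, and the intervals of neighbours among the other 4 overlapped. In the order of the sorts, the 10 highest cells held 70.2%, 65.7%, 57.6%, 37.7% and 38.7% of the UMIs, and the highest cells had 46, 116, 66, 5 and 89. The cell with 116 UMIs held 54.5% of all Mcpt8 UMIs of its Flt3+ HSA+ sort. Genes with at least 50% of their UMIs in 10 cells made up 0.161%, 0.44%, 0.168%, 0.0648% and 0.269% of genes with at least 100 UMIs in the 5 sorts, and Mcpt8 was among them in the first 3. Cma1 was among them in the Flt3- Ly6d- HSA- sort and the control, the sorts where it had 100 UMIs.

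High Mcpt8 counts went with granulocyte markers. The granulocyte class held 82.3%, 67.6% and 70.7% of the Mcpt8 UMIs of the first 3 sorts and 17.9% of those of the control. Its share of all UMIs in these sorts was 10.5%, 5.27%, 19.8% and 3.03%. The class took in 234 of all 7948 cells, 124 of the 481 with Mcpt8 and 11 of the 14 with at least 10 Mcpt8 UMIs. In those 14 cells Mpo was detected in 12, Elane in 11 and Hdc in 11, and Tcf7, Bcl11b and Cd3g in none. Of all 7948 cells, Mpo was detected in 75.7%, Elane in 5.49%, Hdc in 6.59%, Tcf7 in 63.1%, Bcl11b in 18.4% and Cd3g in 8.10%. Detection of Mpo thus set these 14 cells little apart from the rest. Its level differed, at 6549 CPM and a median of 196.5 UMIs in the 14 cells against 694 CPM and 3 UMIs over all cells. In the 449 Mcpt8 cells with 1 to 4 UMIs Mpo was detected in 94.9% and Tcf7 in 61.2%. Their median depth was 22185 UMIs, against 14680 over all cells. A further 18 cells had 5 to 9 UMIs.

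Leaving out the granulocyte class changed the picture between sorts. Mcpt8 was then at 1.45, 2.84, 8.71, 6.50 and 6.96 CPM. The ratio of Flt3- Ly6d- HSA- to Flt3+ Ly6d- HSA- cells went from 3.25 (2.71 to 3.92) to 6.00 (3.99 to 9.24). The ratio of Flt3- Ly6d+ to Flt3+ HSA+ cells went from 0.782 (0.587 to 1.03) to 2.29 (1.61 to 3.24), and that of the control to the mean of the 4 sorts from 0.714 (0.635 to 0.801) to 1.43 (1.22 to 1.68), both turning direction. That of Ly6d+ to Ly6d- HSA- cells among Flt3- cells went from 0.272 (0.207 to 0.353) to 0.746 (0.540 to 1.03). Without the 22 cells with 2 or more of the 4 genes, described further on, the ratio of the 2 Ly6d- HSA- sorts went the other way, to 2.14 (1.75 to 2.62), and that of Ly6d+ to Ly6d- HSA- cells to 0.413 (0.310 to 0.543). Over the 4 control classes, from neither Il2ra nor Bcl11b to both Bcl11b and Cd3g, Mcpt8 was at 16.2, 9.96, 2.37 and 0.728 CPM. This level fell over the first 3 classes, where that of Cpa3 rose, and both fell to the last. The shares of cells with an Mcpt8 UMI were 8.18% (6.64 to 9.95), 10.3% (8.25 to 12.7), 2.99% and 1.02%. In the first class 3 cells had at least 10 Mcpt8 UMIs. With classes set on thinned cells the Mcpt8 levels were 13.3, 6.16, 0.587 and 0.241 CPM, the last from 1 UMI. In the last class at full depth 6 of 589 cells (1.02%) had an Mcpt8 UMI, which is taken as the background share of this gene, at a median depth of 15985 UMIs. At full depth the share in every sort, granulocyte class included, lay above it. Outside that class the shares in the 5 sorts were 2.01% (1.33 to 2.91), 5.19%, 3.88%, 6.26% and 5.34%. The first overlapped with the interval of the background share (0.375 to 2.20).

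Cma1, the mast cell chymase, was present in few cells and high in nearly all of them. It had 0, 86, 312, 0 and 246 UMIs in the 5 sorts, in 0, 2, 7, 0 and 8 cells. The 2 cells of the Flt3+ HSA+ sort had 58 and 28 UMIs, the 7 cells of the Flt3- Ly6d- HSA- sort had 8 to 99, and the 8 control cells had 1 to 89. In all, 14 of the 17 cells had at least 10 UMIs. The 0 in 1412 Flt3+ Ly6d- HSA- cells allows a share of cells with a UMI of up to 0.212%, by the limit of 3 counts, and the 0 in 847 Flt3- Ly6d+ cells up to 0.354%. The Flt3- Ly6d- HSA- level of 22.3 CPM (19.9 to 24.9) came from 7 of 1205 cells, against 0 of 1412 and 0 of 847. No lowest ratio is given for these sorts, because 1 positive cell could hold far more than 3 UMIs.

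The Cma1 cells were shallow and carried part of a mast cell pattern. Their median depth was 3450 UMIs, from 1111 to 15206, and 10 of the 17 lay under 4000, against a median of 14680 over all sorted cells and 194 of 7948 under 4000. All 17 held Cpa3, from 1 to 85 UMIs with a median of 25. Kit was detected in 15, Gata2 in 14, Ms4a2 in 12, Mcpt8 in 7 and Fcer1a in 4. Of the other genes of the mast cell and basophil list, Mcpt4 was detected in 6, at up to 49 UMIs, and Hdc in 3, at no more than 1 UMI. In the 14 of these cells with 2 or more of Mcpt8, Cma1, Ms4a2 and Fcer1a, the list genes Il1rl1 and Cd200r3 were detected in 11 and 9. Bcl11b, Cd3g, Flt3 and Elane were detected in none of them, Tcf7 in 1 and Mpo in 2, and none belonged to the granulocyte class. Mcpt1 and Mcpt2, mucosal mast cell proteases added after their values were seen, reached 1332 and 771 UMIs in the same control cell. Over the 7948 cells, 99.8% of Mcpt1 UMIs and 97.4% of Mcpt2 UMIs lay in cells with 2 or more of Mcpt8, Cma1, Ms4a2 and Fcer1a. These proteases are close paralogues, and how reads shared between them were counted is not stated in the labels or files used here.

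Ms4a2, the beta chain of the IgE receptor, had 2, 4, 65, 0 and 60 UMIs in 2, 2, 17, 0 and 12 cells of the 5 sorts. The highest counts were 17 and 11 UMIs in Flt3- Ly6d- HSA- cells and 19 and 10 in the control, while 14 of the 33 positive cells had 1 UMI. Cpa3 was detected in 30 of the 33, Gata2 in 23, Mpo in 18 and Cma1 in 12. The 4 cells with at least 10 UMIs all lacked Cma1 and all held Cpa3, Mcpt8, Gata2, Hdc and Mpo. The 21 Ms4a2 cells without Cma1 had a median depth of 19914 UMIs, none was under 4000, and 8 were in the granulocyte class.

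Fcer1a, the alpha chain, was nearly absent. It had 57 UMIs in 3 control cells (35, 21 and 1) and 1 UMI in 1 Flt3- Ly6d- HSA- cell. All 4 cells also held Cpa3 (24 to 85 UMIs), Cma1 (43 to 99 UMIs) and Ms4a2 (1 to 8 UMIs). The other 3 sorts had 0 UMIs, which allows 0.212%, 0.254% and 0.354% of cells with a UMI by the same limit. The gamma chain Fcer1g, which other immune receptors also use and which was added after its values were seen, behaved otherwise and was detected in 33.6% to 59.5% of the cells of each sort. In the 589 control cells with Bcl11b and Cd3g, Cma1, Ms4a2 and Fcer1a had 0 UMIs, which bounds their free RNA there.

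The few high cells of these genes were partly the same cells. Of 7948 cells, 7444 had none of Mcpt8, Cma1, Ms4a2 and Fcer1a, 482 had 1, 15 had 2, 5 had 3 and 2 had all 4. The 22 cells with 2 or more were 1 Flt3+ HSA+ cell, 12 Flt3- Ly6d- HSA- cells (0.996%, 0.516 to 1.73) and 9 control cells (0.273%, 0.125 to 0.517), with 0 in the other 2 sorts. Cpa3 was detected in 21 of the 22, at 4 to 85 UMIs in the 14 with Cma1.

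The 22 cells fell apart by Cma1. The 14 with Cma1 had a median of 3582 UMIs, and 20 of the 22 genes of the mast cell and basophil list were detected in them, with 10 of the 14 granulocyte and monocyte markers at 0 and a sum of 83.0 CPM for these markers. The 8 without Cma1 had a median of 23486 UMIs, and 12 of the 14 granulocyte markers were detected at a sum of 16086 CPM, with 6 of the 8 in the granulocyte class. The genes with the largest ratios over all other cells in the first set included Mcpt1 (44537 CPM), Mcpt2 (25482 CPM), Cma1, Tph1, the serotonin-forming enzyme (1079 CPM in 13 of 14 cells), Cd200r3, Cyp11a1 (1684 CPM in 14 of 14) and Il1rl1, the IL-33 receptor (261 CPM in 11 of 14). In the second set they included Csrp3 (198 CPM in 6 of 8), Ms4a2, Mcpt8, Cd63, Gata2, Hdc (207 CPM in 7 of 8), Cebpa, a granulocyte transcription factor (189 CPM in 8 of 8), and Ms4a3 (1071 CPM in 8 of 8). Ms4a2 and Mcpt8 helped to define the sets, and so did Cma1.

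Markers of B cells, eosinophils and dendritic cells were nearly absent from the 14 cells with Cma1. B cell markers were at 0 for 5 of 5 genes, eosinophil markers for 6 of 7 and dendritic markers for 5 of 6. The sums of these lists were 0, 11.9 and 23.7 CPM, against 1.26, 15.5 and 120 CPM over all cells. With so little B cell and eosinophil RNA over all cells, the zeros of these 2 lists in 14 shallow cells do not set them apart. Of the 10 T-lineage genes Bcl11b, Cd3g, Cd3e, Thy1 and Dtx1 were at 0, while Cd7 was detected in 12 of the 14 cells. Of the NK and innate lymphoid list Ncr1, Klrb1c, Rora and Zbtb16 were at 0, Il1rl1 is shared with the mast cell list, and Gzmb, a granzyme, was at 3534 CPM, with 49.3% of it in 1 cell. Erythroid and megakaryocyte genes were at 0 for 7 of 10, and the 8 progenitor genes were all detected. In the 8 cells without Cma1 the counts at 0 were 5 of 5, 6 of 7, 4 of 6, 4 of 10, 2 of 7, 8 of 10 and 0 of 8 in the same order of lists. The control cell with 51631 UMIs held Ms4a2 and Mpo together with 8 Bcl11b and 7 Tcf7 UMIs; doublets within a hashtag were not called and their part was not tested.

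**Figure D4:**
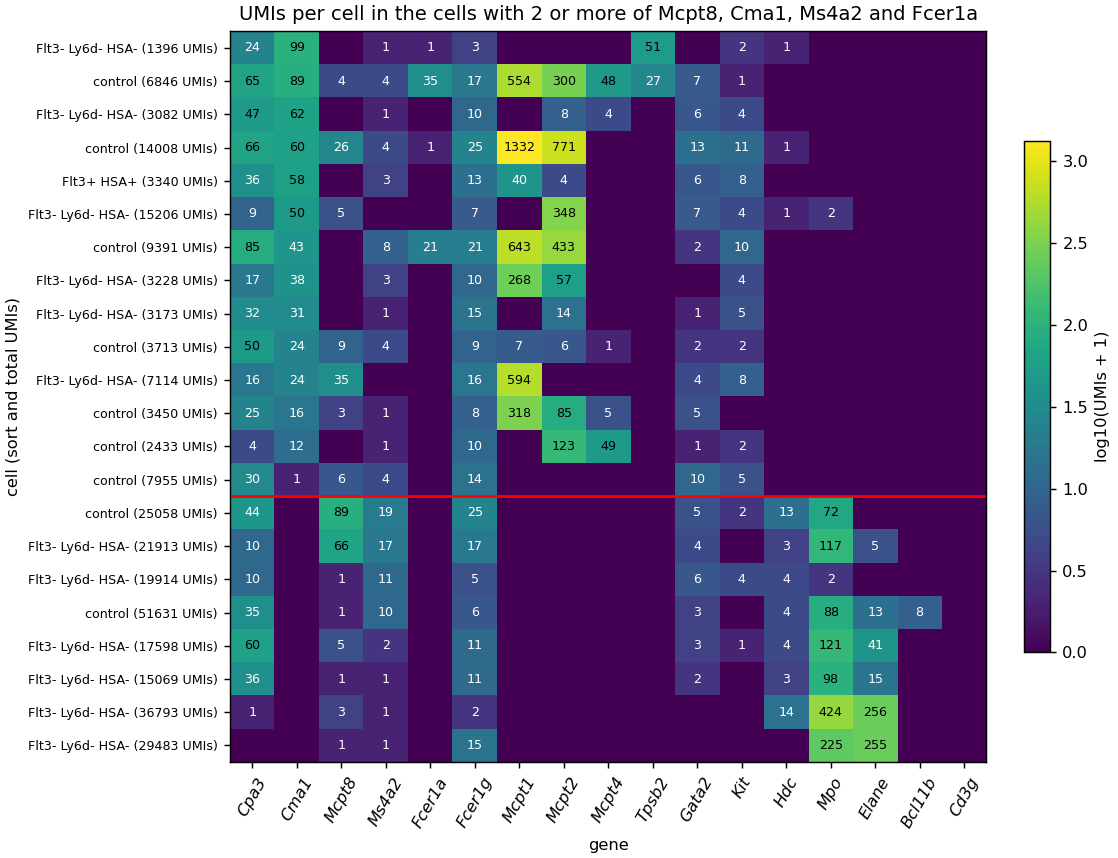
UMIs of 17 genes (columns) in the 22 cells with 2 or more of Mcpt8, Cma1, Ms4a2 and Fcer1a (rows, with sort and total UMIs), coloured by log10(UMIs + 1), with the count printed where above 0. The red line separates the 14 cells with Cma1 from the 8 without: Mcpt1 reaches 1332 UMIs above it and is 0 below, Mpo is at most 2 above and 2 to 424 below.

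These rare cells carried little of the Cpa3 RNA. The 22 cells held 2.52% of all Cpa3 UMIs, 4.10% in the Flt3+ HSA+ sort, 7.14% in the Flt3- Ly6d- HSA- sort and 1.97% in the control. Cells with none of the other 4 genes, 7444 of all 7948, held 89.6% of all Cpa3 UMIs, at 208 CPM against 211 CPM over all cells. Of the 976 cells with at least 10 Cpa3 UMIs 883 were of this kind. The other 93 held at least 1 of the 4 genes, as did 504 of all 7948 cells. Most of the 883, 780 cells, came from the control and were set against the other 2522 control cells. Because the 780 were chosen to lack the 4 genes, the 207 control cells with any of them all fell among the 2522. Differences in mast cell, basophil and granulocyte genes are thus partly set by this choice. Tcf7 was detected in 96.8% against 75.3%, Il2ra in 92.3% against 54.0%, Bcl11b in 82.2% against 31.0%, Kit in 69.5% against 63.8%, Gata2 in 1.03% against 3.05% and Hdc in 1.79% against 5.63%, at median depths of 20015 and 14594 UMIs. The 10 T-lineage genes summed to 1439 CPM against 1037 CPM, and the 14 granulocyte and monocyte markers to 199 CPM against 1479 CPM. In the Cma1 cells with 2 or more genes Tcf7 was detected in 1 of 14.

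The wider mast cell and basophil list of 22 genes, which includes the 5, was read against all genes at 5 CPM or more in either sort and at least 1.5-fold apart. In Flt3- Ly6d- HSA- over Flt3+ Ly6d- HSA- cells 9 of the 22 reached 5 CPM and 8 were higher, with none lower, against 9.15% of all genes apart in either direction. The list's median log2 ratio was 1.03 against 0.03 over all genes, with Cma1 taken at the limit of 3 counts where it had 0. Granulocyte and monocyte markers moved alongside, with 5 of 12 measured higher, 1 lower and a median log2 ratio of 0.42. Of the transcription factors Gata2 was 5.27-fold (4.04 to 6.94) higher, at 16.1 against 3.05 CPM. Of the mediators Hdc was 2.05-fold (1.70 to 2.46) and Cd63 1.97-fold (1.78 to 2.18) higher, the latter 1.44-fold (1.28 to 1.61) without the 22 cells with 2 or more of the 4 genes, when 6 list genes in place of 8 were higher, and of the receptors Kit 1.52-fold (1.41 to 1.63) and Il3ra, the IL-3 receptor alpha chain, 1.53-fold (1.34 to 1.74). Without the granulocyte class the ratios were 5.71 for Gata2, 1.69 for Hdc, 6.12 for Cd63, 1.64 for Kit and 1.38 for Il3ra. Kit was part of every gate.

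Between the Flt3- sorts the list ran the other way. In Ly6d+ over Ly6d- HSA- cells 7 of 9 measured genes were lower and none higher, against 4.23% of all genes apart, with a median log2 ratio of -1.75 against 0.02. Gata2 was at 0.0998 times (0.0571 to 0.163) the level, 1.60 against 16.1 CPM, Hdc at 0.238 times (0.170 to 0.327) and Csf2rb, the shared beta chain of the IL-3 receptor, at 0.296 times (0.217 to 0.399), while Cpa3 and Kit were within 1.5-fold. Granulocyte markers moved alongside, with 11 of 11 measured lower and a median log2 ratio of -5.21. Without the granulocyte class Hdc was at 0.659 times, Cd63 went from 0.338 to 0.786 times and Gata2 was at 0.105 times the level.

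In the remaining comparisons the list did not move together. In Flt3+ HSA+ over Flt3+ Ly6d- HSA- cells 2 of 7 measured genes, Cpa3 and Cd63, were higher and none lower, against 2.8% of all genes, and Cpa3 fell short of 1.5-fold without those 22 cells, at 1.45-fold. In Flt3- Ly6d+ over Flt3+ HSA+ cells Cpa3 and Kit were higher and Csf2rb, Hdc and Cd63 lower, 5 of 7 against 15.6% of all genes, but without the granulocyte class Cd63 turned from 0.418 to 2.93 times (2.37 to 3.63) and Hdc from 0.558 to 1.31 times (0.894 to 1.91). In the control over the mean of the 4 gated sorts Cpa3 was the only 1 of 9 that was higher and Csf2rb, Hdc and Gata2 were lower, against 7.06% of all genes. Granulocyte markers were lower there too, in 12 of 12 measured genes, and without the granulocyte class Cd63 turned from 0.750 to 1.46 times the mean level. Of the 13 list genes under 5 CPM in every sort, Slc18a2, a monoamine transporter, had 51 UMIs in 40 Flt3- Ly6d- HSA- cells against 10 UMIs in each Flt3+ sort, Mcpt4 had 144 UMIs in 6 cells, Tpsb2 91 UMIs in 5, Prss34 15 UMIs in 4 and Mrgprb1 none.

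**Figure D5:**
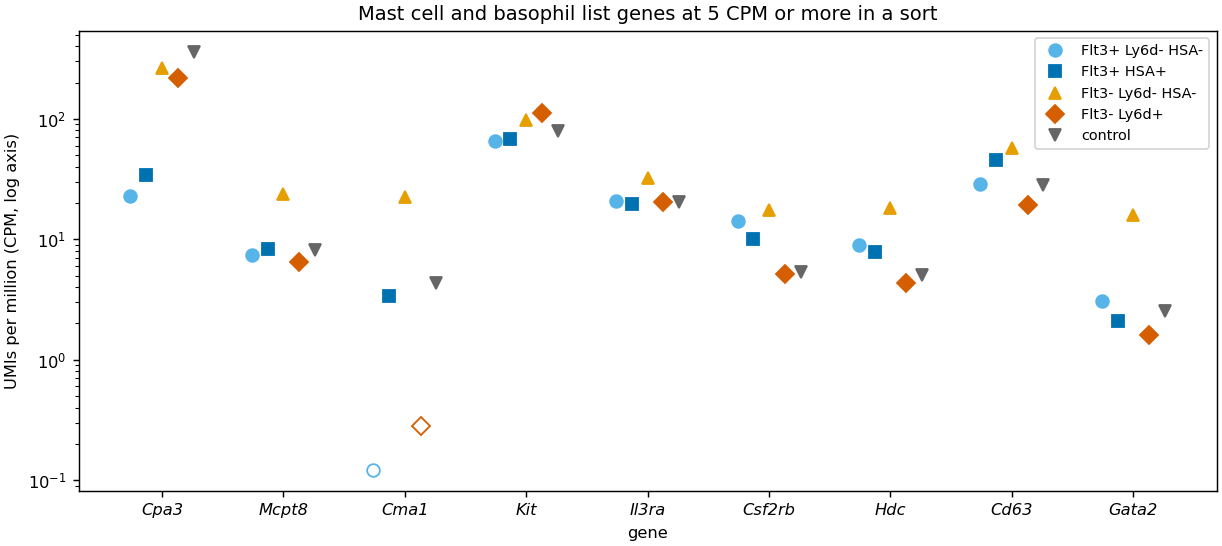
Level in UMIs per 1000000 (log axis) in the 5 sorts of the 9 genes of the mast cell and basophil list that reached 5 CPM in a sort. Open symbols mark 0 UMIs and are drawn at the limit of 3 counts. Flt3- Ly6d- HSA- cells are highest for Mcpt8, Cma1, Il3ra, Csf2rb, Hdc, Cd63 and Gata2, and Cpa3 alone is highest in the control.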

How the data were processed

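Gene expression was measured in 1 droplet library (Chromium 3′ v3) of 5 hashtagged sorts with a matching hashtag library. The authors deposited UMI counts per gene and barcode, whole numbers without normalization, made with Cell Ranger 3.0 on mm10 per the submitters' processing notes. The authors also deposited counts per hashtag and an assignment of each barcode to a sort, by an unstated rule. It was used as deposited, and 345 of 8293 barcodes (4.16%) without a sort were left out. No label or file used here states filters or doublet removal before deposition, and doublets were not called. UMIs were summed per sort and scaled to 1000000 (CPM) with Python 3.11.15, numpy 2.4.6, scipy 1.17.1 and pandas 2.3.3. Thinning to 3000 UMIs (seed 20) left out 7, 6, 45, 21 and 52 cells. Size factors for alternatives came from edgeR 4.0.16 and DESeq2 1.42.0, with no count test. The size rule and the ratio intervals were tested on simulated data. Coordinates came from GENCODE M21 and promoter sequences from RefSeq (GRCm38.p6), where all 5 genes were matched.

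The genes, the lists and the rules were chosen with earlier results of these data known. Named genes were the 5 members, the mast cell and basophil list, marker lists of other cell types, the 8 genes most like Cpa3 across cells, the 5 most like it across sorts and, for the cells with 2 or more of Mcpt8, Cma1, Ms4a2 and Fcer1a, genes among the 10 with the largest ratios at 100 CPM or more. Mcpt1, Mcpt2, Mcpt9, Fcer1g, Gata1 and Srgn were added after their values were seen. Alternatives were other scalings, equal weight per cell, thinning, stricter cells, and leaving out deep cells, the granulocyte class, cells with 2 or more of the 4 genes or the 10 cells with most Cpa3. Leaving out the granulocyte class from the cells with 2 or more genes, leaving out 1 cell or that class among mitotic cells, the conditions of Mcpt8 without these cells and the comparison within the control were chosen after seeing the data.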

Additional observations from a re-analysis of the deposited data

Results flagged for a closer look

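The 345 barcodes to which the authors gave no sort lie outside every comparison and had a median of 29414 UMIs, above that of each sort. They held 2172 Cpa3 UMIs in 273 barcodes (202 CPM, highest 40), 132 Mcpt8 UMIs in 34 barcodes (highest 88), 86 Cma1 UMIs in 3 barcodes (highest 52) and 19 Ms4a2 UMIs in 5 barcodes, each above the limit of 3 counts. Fcer1a had 3 UMIs in 1 barcode, at that limit. In all, 5 of these barcodes held 2 or more of Mcpt8, Cma1, Ms4a2 and Fcer1a. No group has more than 1 sort, so no sort could be set against repeats of itself.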

How the results depend on the processing

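The Cpa3 ratios kept their direction under all 10 alternatives in all 5 comparisons, and 40 of the 50 values stayed within the counting interval. With equal weight per cell and with thinned cells the ratio of Flt3+ HSA+ to Flt3+ Ly6d- HSA- cells was 1.80 and 1.84, that of Flt3- Ly6d+ to Flt3+ HSA+ cells 5.17 and 4.87, and that of the control to the 4 sorts 2.46 and 2.45. Without the 10 cells with most Cpa3 the ratio of Flt3- Ly6d+ to Flt3+ HSA+ cells was 7.03 and the control ratio 2.88. The control ratio was 2.76 without the granulocyte class, and the ratio of Flt3- Ly6d+ to Flt3- Ly6d- HSA- cells was 0.890 without the cells with 2 or more of the 4 genes. Thinned, the 10 highest cells held 21.1%, 33.5%, 15.5%, 11.5% and 5.16% of Cpa3 UMIs in the 5 sorts, where thinning leaves fewer UMIs.

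Genes past the size rule numbered 147 between the 2 Ly6d- HSA- sorts, 14 between the Flt3+ sorts, 46 between the Flt3- sorts, 266 between Flt3- Ly6d+ and Flt3+ HSA+ cells, and 91 between the control and the 4 sorts. In the same order they numbered 1528, 990, 1218, 2102 and 1863 without the conditions on level and share, and thinned cells gave 57 in place of 14. Cells with at least 5 and at least 20 UMIs in place of 10 numbered 1899 and 289 for Cpa3, 32 and 9 for Mcpt8, and 7 and 0 for Ms4a2, against 976, 14 and 4. List genes apart at 2-fold in place of 1.5-fold were 5 in place of 8 for Flt3- Ly6d- HSA- over Flt3+ Ly6d- HSA- cells, 0 in place of 2 for Flt3+ HSA+ over Flt3+ Ly6d- HSA- cells, and 2 in place of 5 for Flt3- Ly6d+ over Flt3+ HSA+ cells. Without the granulocyte class 4 in place of 7 were apart between the Flt3- sorts, and 16 cells in place of 22 held 2 or more genes. Without those 22 cells 1 list gene in place of 2 was apart between the Flt3+ sorts. Leaving out the granulocyte class reversed Cd63 to 2.93 and Hdc to 1.31 in Flt3- Ly6d+ over Flt3+ HSA+ cells.

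Cma1, Ms4a2 and Fcer1a rest on 17, 33 and 4 cells, so their levels describe those cells. Fewer positive cells in a sort and less RNA per cell were told apart only by the counts per cell given above. No paired analysis was possible because there was 1 sort of each kind and the labels give no replicates.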

Other observations

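Siglecf, an eosinophil marker, was detected in 14.2% to 26.2% of the cells of each sort, while other genes of its list of 7 were nearly absent. Its level was 10.4, 10.7, 23.9, 26.8 and 13.4 CPM in the 5 sorts, the control last. Ear1 and Ear6 had 0 UMIs in all 7948 cells, and Epx and Ear2 had 1 each. Of the genes added after their values were seen, Mcpt9, a further mast cell protease, had 11 UMIs in 5 cells, and all of them lay in cells with 2 or more of Mcpt8, Cma1, Ms4a2 and Fcer1a. Gata1, a GATA factor of erythroid and mast cells, had 61 UMIs in 53 cells, 19.7% of them in those cells. Srgn had UMIs in 7843 of the 7948 cells.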
